A study of Mus musculus with 8 samples.

Results

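The steady-state transcriptome of mouse embryonic fibroblasts lacking p53 and both cryptochromes was set against that of fibroblasts lacking p53 alone, in cells that had received no ultraviolet light. The genes were those tested in both of the authors' Cuffdiff tables, 14933 of the 39175 genes in each table, and each was described by its FPKM (fragments per kilobase of transcript, scaled for library size, so a level corrected for transcript length). Of these, 11537 reached an FPKM of 1 in at least 1 of the genotypes, and 11504 of them were above 0 in both and so had a ratio. The remainder, most of them models of small RNAs, were listed at 0 in 1 genotype, 15 in p53CryKO and 18 in p53KO cells. A gene below an FPKM of 1 in 1 genotype met the minimum only through the other. Its direction was then set by the filter, and this holds for such members of every list below.

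The p53CryKO cells carried the genotype p53-/-Cry1-/-Cry2-/- and the p53KO cells the genotype p53-/-, both on the C57BL/6J strain, so the loss of p53 was common to all groups and no wild-type cells were analysed here. Both kinds of fibroblast were a gift from another laboratory. The labels do not give the number of animals or of cell isolates behind each genotype. Effects of the cryptochrome alleles and other differences between the 2 populations of cells cannot be told apart. Cells of each genotype stayed without treatment or received UV at 254 nm, 40 J/m2, and were collected 16 h later, with 2 biological replicates in each of 4 groups. The untreated groups are the subject here, and the irradiated groups serve as a set of other cultures of the same cells. In the authors' deposited tables the replicates of a group are pooled into 1 FPKM for each gene, so no value has an SD and no test of the genotypes was made. Ratios below are descriptions of these pooled values.

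Cryptochromes are the main repressors of the mammalian circadian clock. CLOCK and BMAL1 (encoded by Arntl) bind E-box sequences and switch on the genes of their own repressors, the period and cryptochrome proteins, which then silence CLOCK and BMAL1. A second loop runs through the nuclear receptors REV-ERB (Nr1d1 and Nr1d2), themselves driven from E-boxes, which repress Arntl through ROR response elements. Embryonic fibroblasts carry this clock in each cell, and cultures that have not been synchronised hold cells at different phases.

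Between the untreated genotypes, 608 of 11504 genes (5.29%) were at least 2-fold higher in p53CryKO than in p53KO cells and 836 (7.27%) at least 2-fold lower, 12.6% in all. At 4-fold or more, 185 genes were higher and 268 lower, and at 16-fold or more 30 were higher and 34 lower. The median log2 ratio (log2 of the p53CryKO FPKM over the p53KO FPKM) was -0.07, with 90% of genes between -1.28 and 1.04 and quartiles of -0.42 and 0.28. Of the higher genes 488 and of the lower genes 784 coded for protein, as did 10406 of all genes with a ratio. Wide ratios were more common among weakly expressed genes: 21.2% of 3424 genes with an FPKM of 1 to 5 in the higher genotype were at least 2-fold apart, against 6.62% of 1827 genes that reached an FPKM of 50. The authors' scaling left summed FPKM of 535733 in p53CryKO and 511991 in p53KO cells. Total read counts per sample are unknown.

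**Figure D1:**
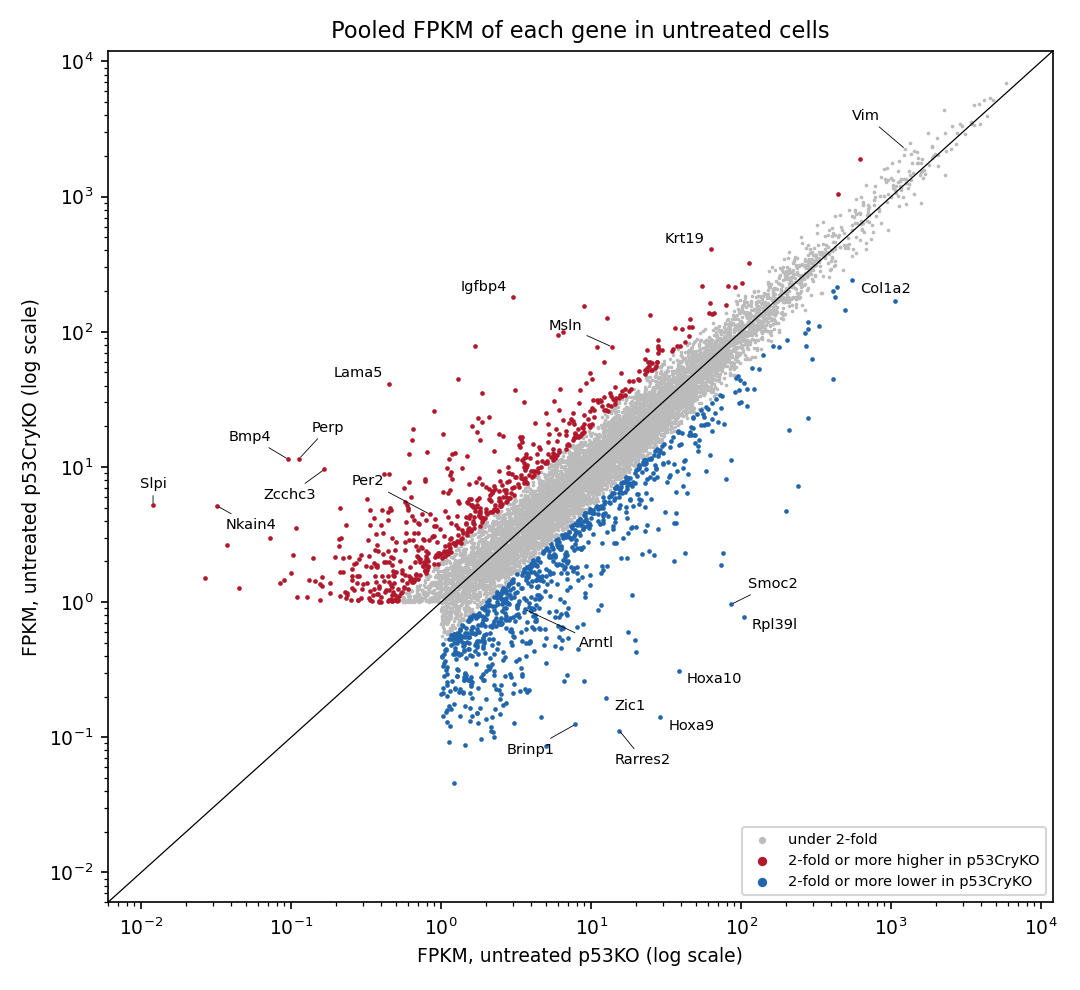
Pooled FPKM of the 11504 genes with a ratio, untreated p53CryKO cells on the vertical and untreated p53KO cells on the horizontal axis, both on log scales, with the line of equality. The 608 genes at least 2-fold higher and the 836 at least 2-fold lower in p53CryKO cells are coloured, and genes at the edges of the cloud reach ratios of more than 16-fold.

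The knocked-out genes were read first. Cry1 stood at 3.34 FPKM in cells labelled p53CryKO and 3.85 in p53KO cells, and Cry2 at 4.54 in p53CryKO and 2.44 in p53KO. Trp53 stood at 84.4 in p53CryKO and 78.8 in p53KO cells, and failed the authors' test in the p53CryKO table. A disrupted gene can still be transcribed, and a value over the whole gene does not tell a disrupted transcript from an intact one, so the levels leave the genotype labels unchecked and every direction below rests on the labels. Of 67 genes lying within 10 Mb of Cry2, 5 were at least 2-fold higher and 2 lower in p53CryKO cells (median log2 ratio 0.46), and of 192 around Cry1, 6 were higher and 17 lower (-0.24). Around Trp53, disrupted in both genotypes, 4 were higher and 15 lower of 236 (-0.29). Among all genes 5.29% were higher and 7.27% lower, and the medians of the whole chromosomes were 0.26 for chromosome 2 with Cry2, -0.24 for chromosome 10 with Cry1 and -0.26 for chromosome 11 with Trp53.

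Clock genes differed most in the repressor Per2 and in the activator Arntl, and in opposite directions. Of 10 genes listed as clock repressors, all measured, 3 were at least 2-fold higher and 1 lower in p53CryKO cells (median log2 ratio 0.54, against -0.07 over all genes), beside the 5.29% and 7.27% of all genes. Of the higher genes, Per2 and Bhlhe41 were below an FPKM of 1 in p53KO cells. They entered only through p53CryKO cells, so their direction was set by the filter. With a minimum of 5, 4 repressors had a ratio, 1 higher and 1 lower (median 0.37). Of 13 listed targets of E-boxes 11 had a ratio, with 3 higher and 1 lower and a median of 0.43. The higher ones (Per2, Ciart and Bhlhe41) and the lower one (Nr1d1) are the same genes as in the repressor list. The counts of these lists are therefore not separate results. Per2 (ENSMUSG00000055866, chromosome 1, 91415982 to 91459324 of GRCm38, minus strand), a period protein that partners the cryptochromes in repression, stood at 4.45 FPKM in p53CryKO and 0.844 in p53KO cells, a log2 ratio of 2.40. After UV it stood at 0.685 in p53CryKO and 0.118 in p53KO cells (2.54), so the gap between the genotypes was of like size at a far lower level. A value alone in parentheses is such a log2 ratio from here on.

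Other repressors followed at smaller ratios. Ciart (ENSMUSG00000038550, chromosome 3, 95878503 to 95882251, minus strand), also called Chrono, a repressor of CLOCK and BMAL1, stood at 10.7 FPKM in p53CryKO and 3.55 in p53KO cells (1.59), and at 10.8 in p53CryKO and 4.64 in p53KO after UV. Bhlhe41 (ENSMUSG00000030256, chromosome 6, 145858243 to 145865558, minus strand), which encodes the E-box repressor DEC2, stood at 1.60 in p53CryKO and 0.676 in p53KO cells (1.24), and at 0.527 in p53CryKO and 0.314 in p53KO after UV, short of 2-fold. With a pseudocount of 1 its untreated log2 ratio was 0.63, also short of 2-fold. The transcript of Cry2, counted in the cells labelled as lacking it, had a log2 ratio of 0.90, and Per3 one of 0.66 (2.26 FPKM in p53CryKO and 1.44 in p53KO cells). Bhlhe40, which encodes DEC1, stood at 14.8 in p53CryKO and 12.0 in p53KO (0.31). Per1 was nearly level at 4.22 FPKM in p53CryKO and 3.91 in p53KO cells (0.11), and turned to -0.35 after UV. Among targets of E-boxes outside the repressors, Tef, a PAR bZIP factor that binds D-boxes, had a log2 ratio of 0.67 (22.2 FPKM in p53CryKO, 14 in p53KO). Dbp, of the same family and often used to read the clock's output, was level at 4.92 in p53CryKO and 4.54 in p53KO cells (0.12). Wee1, a mitotic kinase under clock control, stood lower at 3.72 in p53CryKO and 5.55 in p53KO (-0.58). Targets of E-boxes therefore did not move as a block: Per2, Ciart and Bhlhe41 were at least 2-fold higher while Per1 and Dbp were level.

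The loop through REV-ERB stood lower in p53CryKO cells at Nr1d1 and at Arntl. Nr1d1 (ENSMUSG00000020889, chromosome 11, 98767932 to 98775333, minus strand) stood at 7.21 FPKM in p53CryKO and 17.3 in p53KO cells (-1.26), and at 3.60 in p53CryKO and 16.4 in p53KO after UV (-2.18). Arntl (ENSMUSG00000055116, chromosome 7, 113207465 to 113314126, plus strand) stood at 0.883 in p53CryKO and 3.63 in p53KO cells (-2.04), and at 0.289 in p53CryKO and 2.83 in p53KO after UV (-3.30). Arntl passed the FPKM minimum only through untreated p53KO cells, so its direction there was set by the filter. Its partner Clock was nearly level at 2.66 in p53CryKO and 2.99 in p53KO (-0.17), as was the related Arntl2 at 3.61 in p53CryKO and 4.38 in p53KO (-0.28). Nr1d2, the other REV-ERB gene, lay on the opposite side at 7.09 FPKM in p53CryKO and 5.25 in p53KO cells (0.43). The activating receptor gene Rora stayed below an FPKM of 1 at 0.0697 in p53CryKO and 0.428 in p53KO, and Npas2, which can stand in for Clock, was tested in the p53KO table but not in the p53CryKO table and stood at 0.0107 in p53CryKO and 0.183 in p53KO. Nfil3, a repressor at D-boxes with a ROR element in its control region, stood at 13.4 in p53CryKO and 11.3 in p53KO cells (0.25). Of 5 listed targets of ROR elements 3 had a ratio, with 1 lower, Arntl, and a median of -0.17. All genes on chromosome 7, where Arntl lies, had a median log2 ratio of -0.37, and those on chromosome 11, where Nr1d1 lies, one of -0.26, so both genes stood well below the level of their chromosomes.

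Kinases and ubiquitin ligases that set the stability of clock proteins stayed within 2-fold. Of 16 listed, 14 had a ratio, none was 2-fold apart and the median was -0.26. Csnk1d and Csnk1e, casein kinases that phosphorylate period proteins, both had log2 ratios of -0.26. Gsk3b was the lowest at -0.73.

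**Figure D2:**
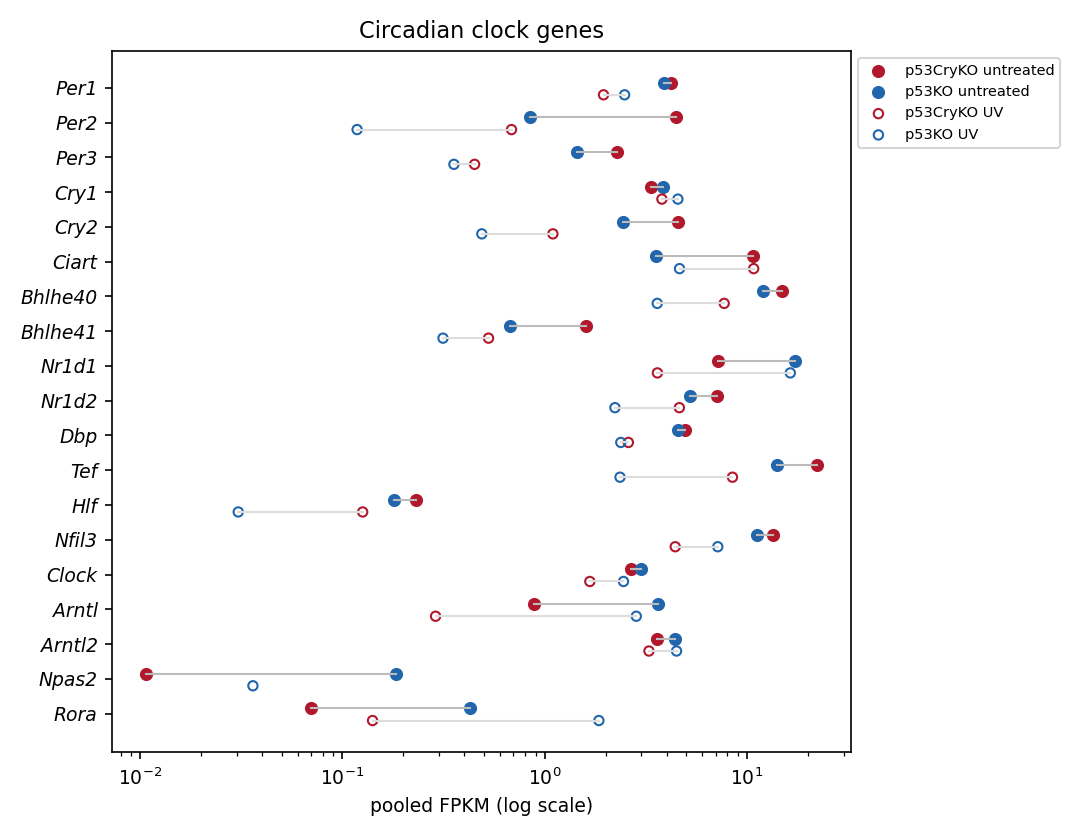
Pooled FPKM of 19 clock genes on a log scale, p53CryKO in red and p53KO in blue, untreated as filled and UV-treated as open circles; Npas2 was listed at 0 in UV-treated p53CryKO cells and has no open red circle. Per2, Ciart and Bhlhe41 lay to the right in untreated p53CryKO cells (log2 ratios 2.40, 1.59 and 1.24), Arntl and Nr1d1 to the left (-2.04 and -1.26).

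Promoter sequences of 4 of these 5 genes are shown because the clock's 2 loops are defined by the elements in them; they are windows from 250 bases before to 50 bases after a RefSeq transcription start (GRCm38.p6), written 5′ to 3′ on the gene's strand, with motif matches in capitals. The higher genes Ciart (chr3:95882179-95882478, minus strand) and Bhlhe41 (chr6:145865371-145865670, minus strand) held the palindromic E-box CACGTG, 3 times and 1 time. Arntl (chr7:113207261-113207560, plus strand, 1 of 2 RefSeq starts) held the core of a ROR element, TAGGTNA, 2 times, and Nr1d1 (chr11:98775328-98775627, minus strand) held neither.
Ciart: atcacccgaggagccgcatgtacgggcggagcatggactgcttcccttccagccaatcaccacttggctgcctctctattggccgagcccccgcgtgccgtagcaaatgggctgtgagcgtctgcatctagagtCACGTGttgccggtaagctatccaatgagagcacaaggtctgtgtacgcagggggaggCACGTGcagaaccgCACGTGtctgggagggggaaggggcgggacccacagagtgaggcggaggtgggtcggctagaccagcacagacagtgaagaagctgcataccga
Bhlhe41: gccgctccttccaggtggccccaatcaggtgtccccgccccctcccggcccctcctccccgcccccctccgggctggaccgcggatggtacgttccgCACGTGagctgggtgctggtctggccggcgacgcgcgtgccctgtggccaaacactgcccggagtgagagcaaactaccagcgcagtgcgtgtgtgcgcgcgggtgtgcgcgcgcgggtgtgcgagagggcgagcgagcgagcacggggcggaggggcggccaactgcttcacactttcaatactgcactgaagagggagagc
Arntl: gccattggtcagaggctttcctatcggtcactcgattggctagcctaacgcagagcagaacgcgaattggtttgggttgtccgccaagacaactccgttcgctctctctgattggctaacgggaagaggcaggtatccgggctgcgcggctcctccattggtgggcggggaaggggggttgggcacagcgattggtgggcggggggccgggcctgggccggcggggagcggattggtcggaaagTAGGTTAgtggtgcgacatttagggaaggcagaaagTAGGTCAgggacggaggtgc
Nr1d1: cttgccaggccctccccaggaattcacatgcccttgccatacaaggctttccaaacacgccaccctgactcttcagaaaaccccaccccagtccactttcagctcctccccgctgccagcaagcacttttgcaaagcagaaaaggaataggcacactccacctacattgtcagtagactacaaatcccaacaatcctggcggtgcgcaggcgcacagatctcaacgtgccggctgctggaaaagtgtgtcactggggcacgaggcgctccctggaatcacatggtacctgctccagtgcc

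Across the clock lists, 19 of 23 genes matched a window, 25 windows in all. CACGTG, searched on both strands without mismatches, was found in 5 of the 19 genes (Bhlhe41, Ciart, Cry1, Per1 and Tef) and in 7.15% of 32851 windows of all genes. TAGGTNA was found in Arntl and Nfil3 and in 8.29% of all windows, and the D-box TTATGTAA in Per3 alone and in 0.938% of all windows. Holding a palindromic E-box in this window did not go with a common ratio: its 5 genes ran from 1.59 for Ciart and 1.24 for Bhlhe41 through 0.67 for Tef and 0.11 for Per1 to -0.20 for Cry1. A clock gene counted once if any of its windows matched, while the shares over all genes count windows, so the units differ. A match says only that these letters lie in the window.

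Beyond the clock, the untreated p53CryKO cells carried a set of transcripts known from mesothelium, the epithelium-like lining of body cavities, at levels above those of p53KO cells. Of 9 listed mesothelial markers 4 had a ratio, and all 4 were at least 2-fold higher (median log2 ratio 3.08, and 1.93 with a pseudocount of 1). The counts of this and later lists stand beside 5.29% higher and 7.27% lower among all genes. Krt19, a keratin, stood at 410 FPKM in p53CryKO and 62.7 in p53KO cells (2.71), and Msln, the surface protein mesothelin, at 77.5 in p53CryKO and 13.7 in p53KO (2.49). Krt7 stood at 2.12 in p53CryKO and 0.140 in p53KO, and Krt18 at 1.45 in p53CryKO and 0.132 in p53KO. Both passed the FPKM minimum only through p53CryKO cells, so their direction was set by the filter. With a minimum of 5, Krt19 and Msln kept a ratio (median 2.60). Another 4 markers had been tested in the p53CryKO table alone and were near 0 in p53KO cells. This status selects for higher levels in p53CryKO cells, so their direction adds no separate support. These were Upk3b (24.7 FPKM in p53CryKO and 0.00390 in p53KO cells), Upk1b (34.1 in p53CryKO, 0.0117 in p53KO), both uroplakin genes, Wt1 (20.4 in p53CryKO, 0.0656 in p53KO), the transcription factor that marks mesothelium in the embryo, and Krt8 (1.93 in p53CryKO, 0.0648 in p53KO). The ninth, Lrrn4, stayed below an FPKM of 1 in both. Summed over the list, the markers came to 572 FPKM in p53CryKO and 76.9 in p53KO cells, and to 987 in p53CryKO and 164 in p53KO cells after UV. In pooled cultures, more cells of a kind and more RNA per cell cannot be told apart.

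Epithelial markers that reached an FPKM of 1 were higher in p53CryKO cells, and markers of other cell types gave a mixed or empty picture. Of 13 epithelial markers, Krt18 and Krt19 had a ratio, and Krt14 (4.95 FPKM in p53CryKO and 0.0287 in p53KO cells), Cdh1 (3.33 in p53CryKO, 0.0247 in p53KO), which encodes E-cadherin, and Krt8 were tested in the p53CryKO table alone. With genes of any status these 5 had a median of 4.89, all at least 2-fold higher. Krt19 alone of them reached an FPKM of 1 in p53KO cells, so the others entered through p53CryKO cells. Epcam, Grhl2, Esrp1, Krt5, Cldn3 and Cldn4, which define most glandular and stratified epithelia, were at or near 0 in both genotypes. Of 11 keratin and squamous genes 6 had a ratio, 4 higher and 2 lower. The lower were squamous genes: Sprr1a, a precursor of the cornified envelope, stood at 4.74 in p53CryKO and 199 in p53KO cells (-5.39), and Sprr2k at 1.83 in p53CryKO and 7.39 in p53KO (-2.01). Endothelial markers summed to 1.03 FPKM in p53CryKO and 1.31 in p53KO cells over 10 genes, none of which had a ratio. Leukocyte markers summed to 7.79 in p53CryKO and 6.72 in p53KO cells over 13 genes, with Tyrobp, C1qa, C1qb and C1qc at 0 in both. Of 12 skeletal muscle markers Acta1 alone had a ratio (-0.92), and Myod1, Myog and Ckm were at 0 in both. Of 12 adipocyte markers Lpl, lipoprotein lipase, stood at 22.9 in p53CryKO and 1.76 in p53KO (3.70) and Fabp4 at 1.56 in p53CryKO and 5.01 in p53KO (-1.68). Of 13 markers of bone and cartilage, Sox9, a master factor of cartilage, stood at 5.72 in p53CryKO and 14.1 in p53KO (-1.30), Sp7 at 0.228 in p53CryKO and 1.25 in p53KO, and Runx2 at 10.8 in p53CryKO and 13.6 in p53KO. Of 13 neural markers, Nes, which encodes nestin, stood at 1.77 in p53CryKO and 4.99 in p53KO (-1.50), with Tubb3 and Ncam1 level.

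Fibroblast markers were abundant in both genotypes and tended to lower levels in p53CryKO cells. Of 14 listed, 12 had a ratio, 0 were at least 2-fold higher and 5 lower (median -0.78), with 2 above 0 and 10 below. The list summed to 4093 FPKM in p53CryKO and 4427 in p53KO cells. After UV the sum was on the other side, at 6732 in p53CryKO and 4989 in p53KO cells, while the median was -0.69. Pdgfra, a growth factor receptor of mesenchymal cells, stood at 3.26 in p53CryKO and 17.7 in p53KO cells (-2.44). Thy1, a surface protein of fibroblasts, stood at 37.8 in p53CryKO and 109 in p53KO (-1.53), and Prrx1, a transcription factor of limb and body wall mesenchyme, at 22.7 in p53CryKO and 63.9 in p53KO (-1.49). Col1a2 was at 241 in p53CryKO and 548 in p53KO (-1.19), and Pdgfrb at 8.42 in p53CryKO and 17.0 in p53KO (-1.01). Vim, the intermediate filament vimentin, ran against the list at 2256 in p53CryKO and 1238 in p53KO cells (0.87). So did Dcn, at 26.5 in p53CryKO and 17.1 in p53KO cells (0.63). The medians of the mesothelial and fibroblast lists thus lay on opposite sides of 0, and the part of the mesothelial markers in the differences below was not tested.

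**Figure D3:**
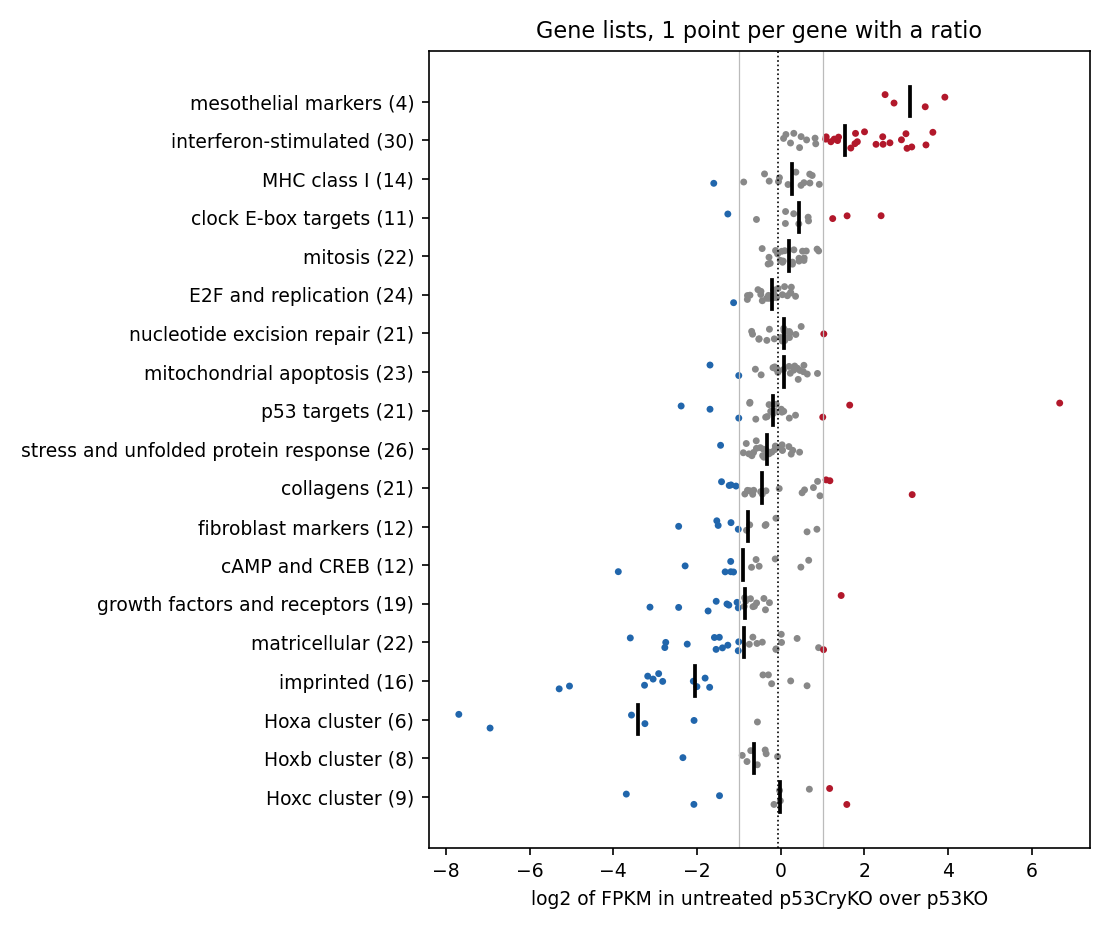
Log2 ratio of untreated p53CryKO over p53KO FPKM for the members of 19 gene lists, 1 point per gene with a ratio and the number of such genes in brackets; short black bars are list medians, the dotted line is the median of all genes (-0.07) and the grey lines mark 2-fold. Mesothelial markers (median 3.08) and interferon-stimulated genes (1.53) lay to the right, and the Hoxa cluster (-3.40) and imprinted genes (-2.04) to the left.

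The largest ratios in either direction belonged to genes of varied function. By a rule that asked for an FPKM of 5 in the higher genotype, the 15 largest ratios ran from 4.23 to 8.76 on the log2 scale and the 15 smallest from -4.68 to -7.69. All 15 of each were also at least 2-fold apart in the same direction after UV. Ratios with a level near 0 in 1 genotype depended on the pseudocount: with a pseudocount of 1 the log2 ratio of Slpi was 2.62 in place of 8.76, below Igfbp4 at 5.49, Lama5 at 4.87 and Gsta4 at 4.31. Without a pseudocount the highest was Slpi, a secreted inhibitor of leukocyte proteases, at 5.22 FPKM in p53CryKO and 0.0120 in p53KO cells. Next came Nkain4 (5.14 in p53CryKO, 0.0322 in p53KO), Bmp4, a bone morphogenetic protein (11.4 in p53CryKO, 0.0956 in p53KO), and Perp, a desmosome-associated protein also known as a p53 target (11.5 in p53CryKO, 0.113 in p53KO). Lama5, the laminin chain of epithelial and mesothelial basement membranes, stood at 41.3 in p53CryKO and 0.449 in p53KO, and Igfbp4, a secreted binding protein for insulin-like growth factors, at 181 in p53CryKO and 3.03 in p53KO. Gsta4, a glutathione transferase, was at 44.7 in p53CryKO and 1.30 in p53KO, and Smpd3, a neutral sphingomyelinase, at 25.9 in p53CryKO and 0.890 in p53KO. Also among the 15 were the serpin genes Serpinb9 (15.9 in p53CryKO, 0.642 in p53KO), Serpinb6b (12.5 in p53CryKO, 0.614 in p53KO) and Serpinb9b (8.86 in p53CryKO, 0.448 in p53KO), close relatives between which fragments may be divided uncertainly, as well as Zcchc3, Ifi27l2b, Ptk2b and Cystm1.

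The 15 at the other end included Hoxa9 and Hoxa10. Rarres2, which encodes the chemoattractant chemerin, stood at 0.112 FPKM in p53CryKO and 15.4 in p53KO cells (-7.10), and Rpl39l, a variant ribosomal protein gene, at 0.777 in p53CryKO and 104 in p53KO (-7.06). Smoc2, a matrix-associated calcium-binding protein, was at 0.965 in p53CryKO and 86.2 in p53KO (-6.48). Zic1, a zinc finger transcription factor of neural tube and somite derivatives, was at 0.197 in p53CryKO and 12.5 in p53KO (-5.99). Gjb2, the gap junction protein connexin 26, was at 0.522 in p53CryKO and 19.6 in p53KO (-5.23), and Rspo2, an enhancer of Wnt signalling, at 0.598 in p53CryKO and 17.7 in p53KO (-4.89). Other members were Brinp1, Sprr1a, Rian, Igfbp5, Meg3 and Capn6.

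A further 142 genes reached an FPKM of 1 in an untreated group but were not tested in both tables. Of these, 94 were at least 2-fold higher in p53CryKO cells, 32 of them at 0 in p53KO cells, and 47 lower, 16 of them at 0 in p53CryKO cells. Asking for an FPKM of 1 in a group while a test is missing in a table selects for wide ratios, so these counts follow largely from the selection. The same holds for list members tested in 1 table alone. By the same naming rule 19 higher and 3 lower genes reached an FPKM of 5. The highest was Anxa8, an annexin, at 51.0 FPKM in p53CryKO and 0.0149 in p53KO cells. Myrf, a membrane-bound transcription factor, stood at 26.8 in p53CryKO and 0.0662 in p53KO, Vat1l at 20.4 in p53CryKO and 0.0107 in p53KO, and Frmd4b at 10.0 in p53CryKO and 0.050 in p53KO. Transcription factors of heart and gut development were among them, Gata4 at 7.44 in p53CryKO and 0.0601 in p53KO and Foxa2 at 7.31 in p53CryKO and 0.0176 in p53KO. Cadm1, an adhesion molecule, was at 7.22 in p53CryKO cells and listed at 0 in p53KO cells. The 3 lower genes were Tnfrsf11b, the decoy receptor osteoprotegerin (0.0130 in p53CryKO, 8.55 in p53KO), Tuba8 (0.101 in p53CryKO, 5.94 in p53KO) and Hoxa11os, listed at 0 in p53CryKO cells and at 7.13 in p53KO cells, a transcript antisense to Hoxa11. Since the rule asks for a test in both tables, counts over the 11504 genes leave out these genes.

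Hox genes, which record the position of a cell along the body and limbs, differed cluster by cluster. Of 11 Hoxa genes 6 had a ratio, with 0 higher and 5 lower (median -3.40, and -1.81 with a pseudocount of 1). All 5 lower ones were below an FPKM of 1 in p53CryKO cells. They passed the FPKM minimum only through p53KO cells, so their direction was set by the filter. A further 3 lower ones were tested in the p53KO table alone, a status that selects for lower levels in p53CryKO cells. Hoxa9 (ENSMUSG00000038227, chromosome 6, 52223100 to 52231089, minus strand) stood at 0.140 FPKM in p53CryKO and 29.0 in p53KO cells (-7.69). Its neighbour Hoxa10 (ENSMUSG00000000938, 52231197 to 52240854) stood at 0.311 in p53CryKO and 38.4 in p53KO (-6.94), and Hoxa11, from the p53KO table alone, at 0.00450 in p53CryKO and 4.96 in p53KO. The anterior member Hoxa3 was at 0.437 in p53CryKO and 4.14 in p53KO (-3.24). The Hoxa genes summed to 3.76 FPKM in p53CryKO and 90.2 in p53KO cells. Genes of a cluster overlap and are transcribed from both strands, and whether strand was used in counting is not stated, so the division of fragments between neighbours is uncertain.

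The other clusters were expressed in both genotypes. Of 8 measured Hoxb genes, Hoxb9 alone was 2-fold apart, at 12.4 in p53CryKO and 62.4 in p53KO cells (-2.34), and Hoxb7 was level at 12.4 in p53CryKO and 13 in p53KO. In the Hoxc cluster all 9 were measured, and ratios changed sign between neighbours. Hoxc8 stood at 15.4 in p53CryKO and 5.14 in p53KO (1.58) and Hoxc13 at 8.69 in p53CryKO and 3.86 in p53KO (1.17), both higher in p53CryKO cells. Hoxc10 stood at 9.76 in p53CryKO and 41.1 in p53KO (-2.07), Hoxc11 at 0.868 in p53CryKO and 11.2 in p53KO (-3.69) and Hoxc4 at 2.02 in p53CryKO and 5.58 in p53KO (-1.46), all lower. The posterior Hoxa genes Hoxa9, Hoxa10 and Hoxa11 were lower together, whereas in the Hoxc cluster Hoxc10 and Hoxc11 were lower and Hoxc9 was not: it stood at 19.3 in p53CryKO and 12.0 in p53KO (0.68). The Hoxd genes were low throughout, with a sum of 1.47 FPKM in p53CryKO and 6.10 in p53KO cells, and Hoxd8 (0.858 in p53CryKO, 3.96 in p53KO) and Hoxd9 (0.297 in p53CryKO, 1.43 in p53KO) were the 2 with a ratio. Both passed the FPKM minimum only through p53KO cells, so their direction was set by the filter.

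Other transcription factors of position and limb mesenchyme leaned the same way. Of 39 listed 17 had a ratio, with 0 higher and 7 lower (median -0.55), and 2 more higher and 1 lower from a table alone. Shox2, a limb and jaw factor, stood at 6.27 FPKM in p53CryKO and 20.7 in p53KO cells (-1.72), Prrx2 at 44.2 in p53CryKO and 98.3 in p53KO (-1.15) and Msx1 at 0.348 in p53CryKO and 2.19 in p53KO (-2.65). Gata4, with the values given above, was tested in the p53CryKO table alone. Tbx15 (29.2 in p53CryKO, 31.0 in p53KO), Emx2 (25.9 in p53CryKO, 30.5 in p53KO) and Twist1 (33.4 in p53CryKO, 43.2 in p53KO) were nearly level.

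Imprinted genes, which are expressed from a single parental allele and many of which govern fetal growth, were lower in p53CryKO cells across several chromosomes. Of 24 listed 16 had a ratio, with 0 higher and 11 lower (median -2.04, and -2.41 after UV), against 9 lower and a median of -1.35 with a pseudocount of 1. Of the lower genes, Igf2, Mest, Ndn and Plagl1 were below an FPKM of 1 in p53CryKO cells. They entered only through p53KO cells, so their direction was set by the filter. In the domain on chromosome 12 the maternally expressed noncoding RNAs Meg3 (ENSMUSG00000021268, 109541001 to 109571726, plus strand) stood at 2.29 FPKM in p53CryKO and 75.8 in p53KO cells (-5.05), Rian (109603940 to 109661716) at 1.87 in p53CryKO and 73.5 in p53KO (-5.29) and Mirg (109729764 to 109749460) at 1.65 in p53CryKO and 11.7 in p53KO (-2.82). Dlk1, a paternally expressed coding gene of that domain (109452823 to 109463336), was within 2-fold at 308 in p53CryKO and 413 in p53KO (-0.42). Meg3, Rian and Mirg thus differed from Dlk1 in their ratios.

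Elsewhere, Grb10, an adaptor that restrains insulin and growth factor receptors, stood at 11.3 in p53CryKO and 85.2 in p53KO cells (-2.92). Peg10, a gene derived from a retrotransposon, stood at 2.10 in p53CryKO and 17.4 in p53KO (-3.05), and its neighbour Sgce on chromosome 6 at 9.39 in p53CryKO and 37.6 in p53KO (-2.0). Ndn, which encodes necdin, was at 0.670 in p53CryKO and 6.06 in p53KO (-3.18), Mest at 0.843 in p53CryKO and 3.58 in p53KO (-2.09), Igf2 at 0.543 in p53CryKO and 1.90 in p53KO (-1.81) and Plagl1, a zinc finger factor, at 0.121 in p53CryKO and 1.15 in p53KO (-3.25). The imprinted genes Gnas (505 in p53CryKO, 586 in p53KO), Igf2r (7.41 in p53CryKO, 9.08 in p53KO), Impact (9.71 in p53CryKO, 8.23 in p53KO) and Dcn (26.5 in p53CryKO, 17.1 in p53KO) stayed within 2-fold.

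Interferon-stimulated genes, the antiviral effectors induced through STAT and IRF factors, were higher in untreated p53CryKO cells. Of 41 listed 30 had a ratio, and 21 were at least 2-fold higher and 0 lower (median 1.53), beside 5.29% and 7.27% of all genes. All 30 ratios were above 0, from 0.07 for Ifit2 to 3.64 for Gbp3. Members below an FPKM of 1 in p53KO cells, Gbp3 among them, entered only through p53CryKO cells, so their direction was set by the filter. With a pseudocount of 1 there were 16 higher and 0 lower (median 1.07). Without an FPKM minimum 37 had a ratio, 25 higher and 1 lower (median 1.49). Isg15, a ubiquitin-like protein, stood at 30.6 FPKM in p53CryKO and 5.62 in p53KO cells (2.45), and Bst2, the tetherin that holds budding virus at the membrane, at 162 in p53CryKO and 62.3 in p53KO (1.38). The oligoadenylate synthetase family was higher in Oasl2 (12.0 in p53CryKO, 1.48 in p53KO), Oas1a (4.52 in p53CryKO, 0.740 in p53KO) and Oasl1 (1.88 in p53CryKO, 0.468 in p53KO), relatives whose shared sequence makes the split between them uncertain. The guanylate-binding proteins Gbp2 (3.73 in p53CryKO, 0.336 in p53KO) and Gbp3 (2.60 in p53CryKO, 0.209 in p53KO) and the apoptosis-associated Xaf1 (15.9 in p53CryKO, 1.82 in p53KO) had log2 ratios above 3.

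The regulators of the response differed in how far apart they stood. Irf7 stood at 3.07 in p53CryKO and 0.888 in p53KO cells (1.79), Irf9 at 10.7 in p53CryKO and 5.09 in p53KO (1.08) and Stat2 at 2.26 in p53CryKO and 2.07 in p53KO (0.12). Of 15 listed genes of nucleic acid sensing 12 had a ratio, 2 higher and 0 lower (median 0.29). The higher sensors were the RNA helicases Ifih1, which encodes MDA5 (1.81 in p53CryKO, 0.372 in p53KO), and Ddx58, which encodes RIG-I (9.04 in p53CryKO, 2.83 in p53KO), both themselves induced by interferon. The adaptor gene Mavs (14.5 in p53CryKO, 13.4 in p53KO) and the kinase gene Tbk1 (7.24 in p53CryKO, 7.39 in p53KO) were level, as was Mb21d1, the DNA sensor cGAS (4.64 in p53CryKO, 5.73 in p53KO). The STING gene Tmem173 stood at 20.0 in p53CryKO and 13 in p53KO (0.61). After UV the interferon list kept a median of 1.23.

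Genes of MHC class I antigen presentation, also inducible by interferon, were not shifted to the same degree. Of 14 measured of 15 listed, 0 were at least 2-fold higher and 1 lower (median 0.27). B2m, the light chain, stood at 617 FPKM in p53CryKO and 547 in p53KO cells (0.18), and the heavy chain genes H2-K1 (36.6 in p53CryKO, 47.8 in p53KO) and H2-D1 (54.4 in p53CryKO, 65.8 in p53KO) lay slightly on the lower side. The immunoproteasome subunit Psmb9 was lower at 0.339 in p53CryKO and 1.03 in p53KO (-1.60). Of 28 NF-kB targets, cytokines and chemokines 21 had a ratio, 5 higher and 2 lower (median 0.13). Cxcl10, a chemokine driven by both interferon and NF-kB, stood at 21.3 in p53CryKO and 4.21 in p53KO (2.34), and Vcam1, an adhesion molecule for leukocytes, at 39.1 in p53CryKO and 14.5 in p53KO (1.43). Ccl9, Cxcl1 and Ccl5 were the other higher members, and Cxcl5 (0.849 in p53CryKO, 5.27 in p53KO) and the cyclooxygenase gene Ptgs2 (9.25 in p53CryKO, 21.8 in p53KO) the lower. The NF-kB subunits Rela and Nfkb1 both had log2 ratios of 0.24.

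Matricellular and elastic fibre genes, whose secreted products shape the matrix around fibroblasts, had more lower than higher members. Of 27 listed 22 had a ratio, 1 higher and 11 lower (median -0.88), with 9 lower once ratios were centred on their median. Thbs2, a thrombospondin that restrains vessel growth, stood at 23.1 FPKM in p53CryKO and 279 in p53KO cells (-3.59), and Postn, periostin, at 63.4 in p53CryKO and 298 in p53KO (-2.23). Fbln1, fibulin 1, was at 4.65 in p53CryKO and 31.2 in p53KO (-2.75), Wisp2, of the CCN family, at 3.35 in p53CryKO and 22.9 in p53KO (-2.77), Ctgf, the connective tissue growth factor, at 110 in p53CryKO and 328 in p53KO (-1.58), and Tnc, tenascin C, at 20.4 in p53CryKO and 56.4 in p53KO (-1.47). Fn1 (211 in p53CryKO, 228 in p53KO) and Cyr61 (422 in p53CryKO, 456 in p53KO) were level, and Loxl2, a collagen cross-linking enzyme, was higher at 7.57 in p53CryKO and 3.72 in p53KO (1.02). Of 29 collagen genes 21 had a ratio, 3 higher and 4 lower (median -0.44). The lower ones were Col16a1, Col7a1, Col1a2 and Col6a3 (-1.07 to -1.41), and Col27a1 was the highest at 2.14 in p53CryKO and 0.242 in p53KO (3.14).

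Other matrix lists were mixed. Of 11 leucine-rich proteoglycans 6 had a ratio, with Fmod, fibromodulin (1.1 in p53CryKO, 9.10 in p53KO, log2 ratio -3.05), and Aspn (1.66 in p53CryKO, 3.53 in p53KO) lower, and Bgn, biglycan, at -0.67. Of 21 genes of matrix proteases and their inhibitors 15 had a ratio, 3 higher and 4 lower (median -0.14). Mmp2, gelatinase A, stood at 30.1 in p53CryKO and 100 in p53KO cells (-1.74), Adamts5, an aggrecan-cleaving protease, at 5.66 in p53CryKO and 1.73 in p53KO (1.71), and the inhibitor Timp3 at 108 in p53CryKO and 46.9 in p53KO (1.21). Of 16 contractile genes 11 had a ratio, 0 higher and 4 lower (median -0.41). Cnn1, calponin, stood at 18.6 in p53CryKO and 64.5 in p53KO (-1.79) and Actg2, a smooth muscle actin, at 7.80 in p53CryKO and 31.9 in p53KO (-2.03). Acta2, the smooth muscle actin that marks myofibroblasts, was on the higher side with a log2 ratio of 0.83, and Tagln was level.

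Growth factor ligands and receptors had more lower than higher members. Of 25 listed 19 had a ratio, 1 higher and 8 lower (median -0.86), with 6 lower once ratios were centred on their median and 5 with a pseudocount of 1. Vegfa, the vascular growth factor, stood at 15.7 FPKM in p53CryKO and 52.3 in p53KO cells (-1.73), Fgf2 at 0.380 in p53CryKO and 3.31 in p53KO (-3.12) and Fgf7 at 19.5 in p53CryKO and 47.5 in p53KO (-1.28). Met, the receptor for hepatocyte growth factor, was the higher member at 18.5 in p53CryKO and 6.78 in p53KO (1.45). Its ligand Hgf, tested in the p53KO table alone, stood at 0.0736 in p53CryKO and 4.2 in p53KO cells, so receptor and ligand lay on opposite sides. Pdgfb, tested in the p53CryKO table alone, stood at 2.15 in p53CryKO and 0.102 in p53KO, while the receptors for PDGF were lower as given among the fibroblast markers. Of 13 genes of the insulin-like growth factor system 12 had a ratio, 2 higher and 5 lower. The binding proteins differed in direction: Igfbp4 was at 181 in p53CryKO and 3.03 in p53KO (5.90), Igfbp5 at 0.260 in p53CryKO and 8.92 in p53KO (-5.10), Igfbp7 at 144 in p53CryKO and 490 in p53KO (-1.76) and Igfbp3 at 0.922 in p53CryKO and 3.86 in p53KO (-2.07). Igf1 stood at 5.88 in p53CryKO and 2.84 in p53KO (1.05), and the receptor gene Igf1r at 3.15 in p53CryKO and 4.39 in p53KO (-0.48).

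In the TGF-beta and BMP pathway, the antagonist Grem1 and the latency protein Ltbp2 stood lower while 3 SMAD genes were within 2-fold. Of 30 listed 26 had a ratio, 1 higher and 6 lower (median -0.36). Grem1 (8.84 in p53CryKO, 44.4 in p53KO, log2 ratio -2.33), a secreted gremlin that binds BMPs, was lower, and the higher member was the ligand Bmp4 (6.90). Ltbp2, a latent TGF-beta binding protein, stood at 7.27 in p53CryKO and 40.8 in p53KO (-2.49). Smad2 (27.1 in p53CryKO, 17.1 in p53KO, log2 ratio 0.67), Smad3 (7.23 in p53CryKO, 4.63 in p53KO, log2 ratio 0.64) and Smad4 (24.0 in p53CryKO, 26.4 in p53KO) stayed within 2-fold. Id1, a direct BMP target, stood at 178 in p53CryKO and 242 in p53KO (-0.44) and Id3 at 151 in p53CryKO and 189 in p53KO (-0.33); Id4 was at 1.80 in p53CryKO and 7.64 in p53KO (-2.09).

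Of 30 Wnt pathway genes 18 had a ratio, 3 higher and 8 lower (median -0.69). With a minimum of 5 there were 11 with a ratio, 2 higher and 3 lower (median -0.18). Among the lower, Wnt2, Fzd5, Sfrp1, Lef1 and Tcf7 were below an FPKM of 1 in p53CryKO cells. They entered only through p53KO cells, and the higher Wnt4 only through p53CryKO cells, so their direction was set by the filter. The lower members included the nuclear factors Lef1 (0.729 in p53CryKO, 4.25 in p53KO, log2 ratio -2.54) and Tcf7 (0.143 in p53CryKO, 1.62 in p53KO, log2 ratio -3.50), the receptor Fzd1 (1.96 in p53CryKO, 6.92 in p53KO) and the antagonist Sfrp1 (0.245 in p53CryKO, 2.24 in p53KO). The higher were the ligands Wnt4 (1.94 in p53CryKO, 0.270 in p53KO) and Wnt5a (8.12 in p53CryKO, 3.52 in p53KO) and the antagonist Sfrp2 (21 in p53CryKO, 7.14 in p53KO). Of 13 Hedgehog genes 9 had a ratio, 0 higher and 3 lower (median -0.70): the coreceptor Gas1 (26.9 in p53CryKO, 60.3 in p53KO, log2 ratio -1.17), the receptor Ptch1 (0.810 in p53CryKO, 2.02 in p53KO) and the decoy Hhip (0.179 in p53CryKO, 2.71 in p53KO, log2 ratio -3.92), of which Ptch1 and Hhip are themselves targets of the pathway. Ptch1 and Hhip entered only through p53KO cells, so their direction was set by the filter. With a minimum of 5, 4 Hedgehog genes had a ratio, 0 higher and 1 lower (median -0.23). Of 13 Notch genes 3 had a ratio, and the ligand Jag1 was higher at 2.92 in p53CryKO and 0.752 in p53KO (1.96). Jag1 entered only through p53CryKO cells, so its direction was set in the same way.

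Genes of cAMP signalling were read because cryptochromes are known to bind and restrain its G protein and cyclase steps. Of 14 listed 12 had a ratio, 0 higher and 6 lower (median -0.91). With a pseudocount of 1 there were 3 lower (median -0.68), and with a minimum of 5, 2 lower of 6 (median -0.64). Fosb and Pde10a were below an FPKM of 1 in p53CryKO cells. They entered only through p53KO cells, so their direction was set by the filter. Pde10a, a phosphodiesterase, stood at 0.175 FPKM in p53CryKO and 2.57 in p53KO cells (-3.88), and Adcy7, an adenylyl cyclase, had a log2 ratio of -1.33. The CREB-induced receptors Nr4a1 (4.86 in p53CryKO, 11.1 in p53KO) and Nr4a2 (1.87 in p53CryKO, 4.28 in p53KO) both had a ratio of -1.19, and Sik1, a kinase induced by CREB, lay on the other side at 6.08 in p53CryKO and 3.82 in p53KO (0.67). All 29 immediate-early and MAP kinase feedback genes had a ratio, 2 higher and 7 lower (median -0.29). Egr1 stood at 3.83 in p53CryKO and 37.1 in p53KO (-3.27), Egr3 at 0.249 in p53CryKO and 3.04 in p53KO (-3.61) and Junb at 27.3 in p53CryKO and 72.9 in p53KO (-1.41). Of these, Egr3 entered only through p53KO cells, so its direction was set by the filter. Klf4, a zinc finger factor of epithelia and of stem cells, was higher at 12.8 in p53CryKO and 1.24 in p53KO (3.36), and Dusp4, an ERK phosphatase, at 14.5 in p53CryKO and 3.31 in p53KO (2.13). Fos (2.76 in p53CryKO, 4.54 in p53KO, log2 ratio -0.72) and Jun (18.6 in p53CryKO, 22.7 in p53KO, log2 ratio -0.29) stayed within 2-fold.

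Glucocorticoid targets were read because cryptochromes also bind the glucocorticoid receptor. Of 14 listed 11 had a ratio, 1 higher and 4 lower (median -0.18). Pdk4, a brake on glucose oxidation, stood at 1.11 in p53CryKO and 5.30 in p53KO (-2.25), Cebpd at 5.29 in p53CryKO and 20.9 in p53KO (-1.98) and Sgk1, a kinase of ion transport, at 20.6 in p53CryKO and 54.0 in p53KO (-1.39). The receptor Nr3c1 was at 4.54 in p53CryKO and 7.78 in p53KO (-0.78), and the classical targets Tsc22d3 (10.9 in p53CryKO, 8.06 in p53KO) and Fkbp5 (16.6 in p53CryKO, 18.8 in p53KO) were within 2-fold. Mt2, a metallothionein, was higher at 55.8 in p53CryKO and 24.4 in p53KO cells (1.19).

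Genes of growth and division were close to equal in the untreated genotypes. All 22 mitotic genes had a ratio and none was 2-fold apart (median 0.19). Cdk1 stood at 273 FPKM in p53CryKO and 275 in p53KO cells, Plk1 at 59.4 in p53CryKO and 70.7 in p53KO and the proliferation marker Mki67 at 9.32 in p53CryKO and 12.7 in p53KO. Of 25 E2F and replication genes 24 had a ratio, 0 higher and 1 lower, E2f8 (3.70 in p53CryKO, 8.08 in p53KO, log2 ratio -1.13), with a median of -0.20. All 20 targets of MYC stayed within 2-fold (median 0.20), and Myc itself was level at 88.3 in p53CryKO and 85.7 in p53KO (0.04). The relatives of Myc differed: Mycl stood at 1.56 in p53CryKO and 0.283 in p53KO (2.46), and Mycn, tested in the p53CryKO table alone, at 1.98 in p53CryKO and 0.0652 in p53KO. The 9 G1 cyclins, kinases and Rb family genes were all within 2-fold. Among CDK inhibitors Cdkn2a was abundant and level at 351 in p53CryKO and 329 in p53KO (0.09), and Cdkn1a, p21, was lower at 0.809 in p53CryKO and 4.21 in p53KO (-2.38). After UV the log2 ratio of Cdkn1a was -0.66, short of 2-fold.

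Repair and apoptosis genes likewise showed few large ratios before any irradiation. Of 22 nucleotide excision repair genes, the pathway that removes UV photoproducts, 21 had a ratio and 1 was 2-fold apart (median 0.08). This was Xpa, the damage verification factor, at 14.6 FPKM in p53CryKO and 7.17 in p53KO cells (1.03), which fell short of 2-fold at equal summed FPKM, with a pseudocount of 1 and with each chromosome centred (0.97, 0.94 and 0.95). Ddb2 (2.55 in p53CryKO, 2.21 in p53KO) and Xpc (3.89 in p53CryKO, 3.70 in p53KO), which recognise the damage, were level. Of 21 checkpoint and recombination genes 20 had a ratio, and H2afx alone was 2-fold apart at 84.6 in p53CryKO and 42.0 in p53KO (1.01), short of it at equal summed FPKM (0.94) and with a pseudocount of 1 (0.99). Of 27 genes of mitochondrial apoptosis 23 had a ratio, 0 higher and 2 lower (median 0.07). The lower ones were the BH3-only genes Pmaip1, Noxa (0.443 in p53CryKO, 1.43 in p53KO, log2 ratio -1.69), and Bbc3, Puma (2.05 in p53CryKO, 4.10 in p53KO, log2 ratio -1.0). Bax (79.2 in p53CryKO, 85.2 in p53KO) and the guard Bcl2l1 (39.9 in p53CryKO, 38 in p53KO) were level, and the effector Bak1 stood at 70.8 in p53CryKO and 45.6 in p53KO (0.64). Of 15 death receptor genes 11 had a ratio, and Tnfrsf21, death receptor 6, was higher at 6.77 in p53CryKO and 1.15 in p53KO (2.56).

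Known targets of p53 were compared between genotypes that both lack it. Of 27 listed 21 had a ratio, 3 higher and 3 lower (median -0.18, and -0.56 after UV). The higher were Perp (11.5 in p53CryKO, 0.113 in p53KO), Plk2, a polo-like kinase (87.3 in p53CryKO, 27.8 in p53KO, log2 ratio 1.65), and Phlda3 (53.6 in p53CryKO, 26.7 in p53KO, log2 ratio 1.01). The lower were Cdkn1a, Pmaip1 and Bbc3, with the values given above. The p53 relative Trp63 was tested in the p53KO table alone and stood at 0.0360 in p53CryKO and 1.20 in p53KO cells, and Trp73 was listed at 0 in both. Mdm2 (11.1 in p53CryKO, 12.2 in p53KO) and Ccng1 (7.02 in p53CryKO, 7.93 in p53KO), among the most responsive targets in wild-type cells, were nearly level.

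Most metabolic and stress lists held few genes that were 2-fold apart. Of 29 genes of cholesterol and fatty acid synthesis 27 had a ratio, 0 higher and 1 lower, but the median was -0.56 and 26 of the 27 were below 0. Insig1, the sterol sensor that holds SREBP in the endoplasmic reticulum, was the lower one at 12.8 in p53CryKO and 28.3 in p53KO (-1.14). All 26 genes of the integrated stress and unfolded protein responses had a ratio, with 1 lower, Ddit4 (4.47 in p53CryKO, 12.1 in p53KO, log2 ratio -1.44), and a median of -0.32. Of 32 NRF2 and glutathione genes 28 had a ratio, 1 higher, Gsta4, and 2 lower, the cystine transporter Slc7a11 (0.284 in p53CryKO, 1.27 in p53KO) and Gpx7 (7.73 in p53CryKO, 16.5 in p53KO), with a median of 0.00. Of 29 glycolysis and hypoxia genes 27 had a ratio, 3 higher and 2 lower (median 0.19), with the lactate exporter Slc16a3 at 4.02 in p53CryKO and 0.440 in p53KO (3.19) and Adm, adrenomedullin, at 1.13 in p53CryKO and 4.52 in p53KO (-2.01). Of 15 retinoid genes 9 had a ratio, 4 higher and 4 lower. Crabp1 (20.7 in p53CryKO, 76.4 in p53KO), which carries retinoic acid inside cells, was lower, and Aldh1a1 (3.78 in p53CryKO, 1.47 in p53KO), which makes retinoic acid, and Rbp4 (2.41 in p53CryKO, 0.494 in p53KO) were higher. Of the proliferins, placental hormones of the prolactin family also made by cultured fibroblasts, Prl2c3 stood at 2.31 in p53CryKO and 42.6 in p53KO and Prl2c2 at 4.2 in p53CryKO and 14.4 in p53KO, near-identical copies whose reads may be split uncertainly.

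Most of the large ratios of untreated cells were found again in the UV-treated cultures. Of 603 genes at least 2-fold higher in untreated p53CryKO cells that had a ratio after UV, 436 (72.3%, Wilson 95% interval 68.6 to 75.7) were at least 2-fold higher there too, 579 had the same sign and 4 were at least 2-fold lower. Of 831 lower genes, 619 (74.5%, 71.4 to 77.3) were at least 2-fold lower there too, 807 had the same sign and 13 were at least 2-fold higher. Among all 11481 genes with both ratios, 7.11% were at least 2-fold higher and 9.4% lower after UV. Genes named above that fell short of 2-fold after UV included Cdkn1a (-0.66 after UV), Plk2 (-0.13), Egr3 (-0.32), Psmb9 (-0.07) and H2afx (0.10). Median log2 ratios of the higher genes were 1.48 untreated and 1.44 after UV, and of the lower genes -1.57 and -1.47. Across those 11481 genes Pearson's r between the untreated and the UV ratio was 0.833 and Spearman's rho 0.773. The points share the cell populations and the scaling of each table, genes are not independent of each other, and the correlation is given as a description. The intervals cover counting of genes only.

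**Figure D4:**
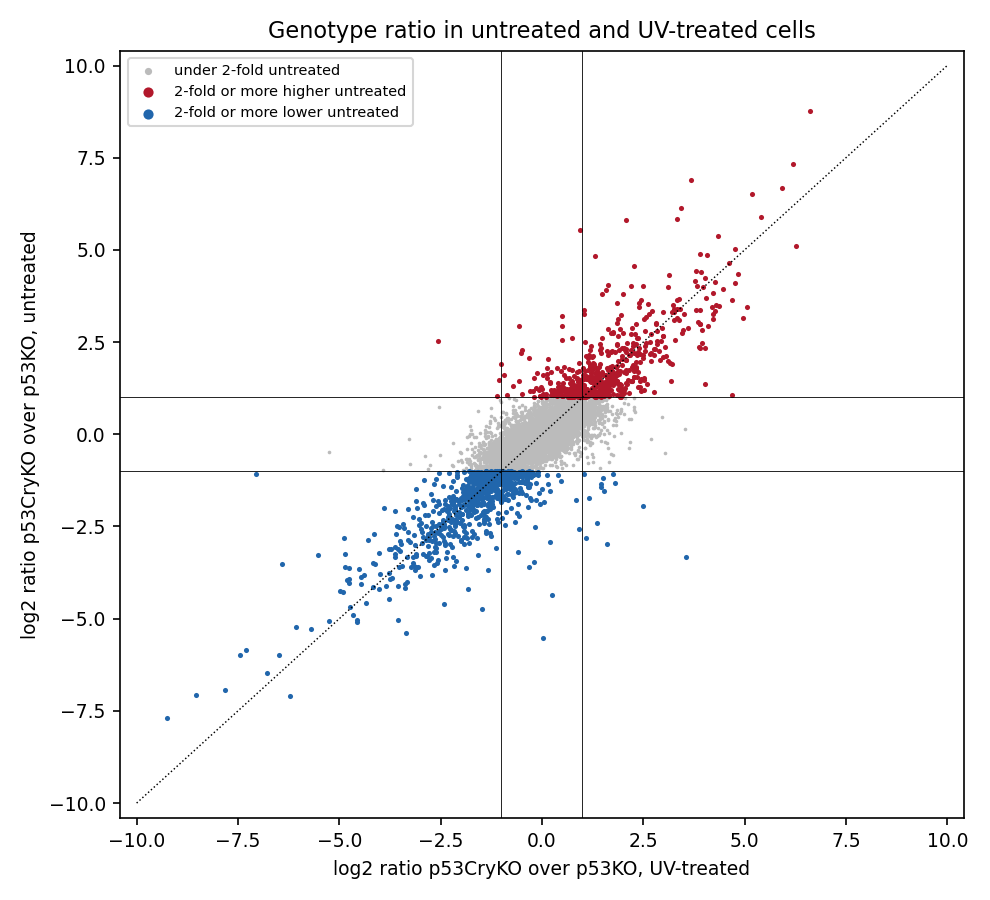
Log2 ratio of p53CryKO over p53KO FPKM in untreated cells (vertical) and in UV-treated cells (horizontal), 1 point for each of 11481 genes, with lines at 2-fold and a dotted line of equality. Of the coloured genes, 436 higher and 619 lower ones lay beyond 2-fold in the same direction in both, and 4 and 13 in opposite directions.

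Ratios were not evenly spread over the chromosomes. The median log2 ratio was lowest on chromosome 16 (-0.46, with 85.1% of 348 genes below 0, against 56.1% of all genes), chromosome 8 (-0.41) and chromosome 7 (-0.37), and highest on chromosome 14 (0.35) and chromosome 2 (0.26). The same medians after UV were -0.44, -0.41, -0.37, 0.20 and 0.24. In all, 7 of 19 autosomes had a median at least 0.2 from the median of all genes, and over the 19 autosomes the untreated and UV medians had a Pearson's r of 0.978, given as a description of the same cell populations. On chromosome 16, 14.4% of genes were at least 2-fold lower, and on chromosome 14, 9.05% at least 2-fold higher. Copy number was not measured, and its part in the ratios was not tested. With the median of each chromosome set to 0, 614 genes were at least 2-fold higher and 718 lower.

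**Figure D5:**
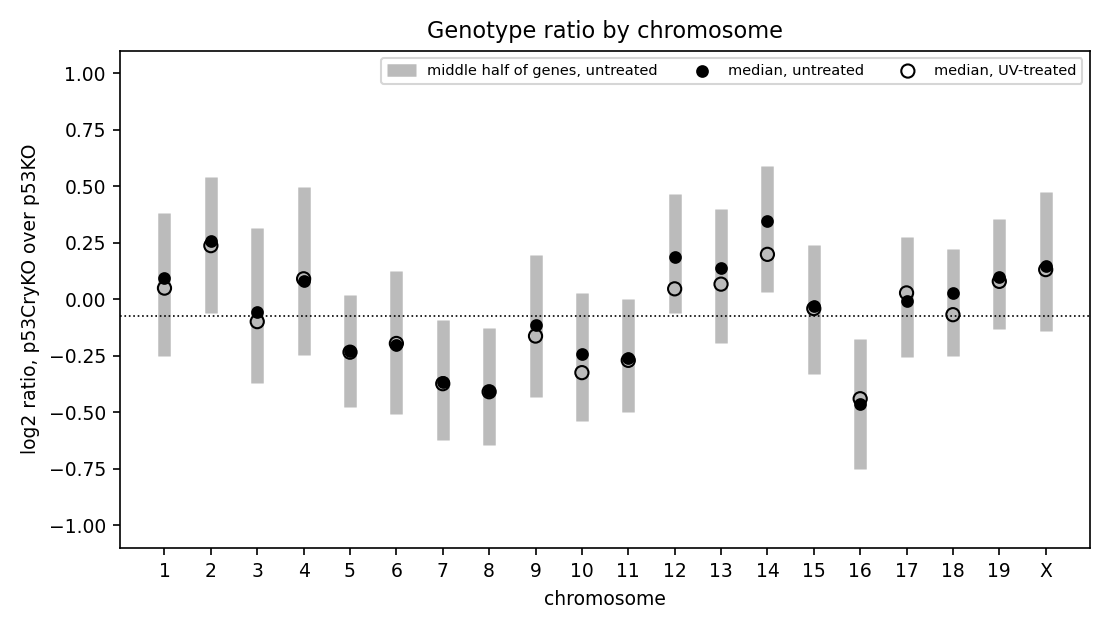
Median log2 ratio of p53CryKO over p53KO FPKM for each of 19 autosomes and X, untreated (filled) and UV-treated (open); grey bars span the quartiles of the untreated ratios and the dotted line is the median of all genes (-0.07). Chromosomes 16, 8 and 7 lay lowest at -0.46, -0.41 and -0.37 and chromosome 14 highest at 0.35.

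Transcripts of the Y chromosome were present in both genotypes at unequal levels. Eif2s3y stood at 11.6 FPKM in p53CryKO and 3.93 in p53KO cells (1.56), Ddx3y had a log2 ratio of 1.06, and Kdm5d stood at 1.41 in p53CryKO and 0.782 in p53KO (0.85). Xist, the noncoding RNA of the inactive X chromosome, was near 0 in both, at 0.00393 in p53CryKO and 0.000964 in p53KO. Genes of the X chromosome had a median log2 ratio of 0.15. Whether the cultures held cells of 1 sex or more, and its part in the ratios, was not tested.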

How the data were processed

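RNA was taken from 8 samples of mouse embryonic fibroblasts, 2 biological replicates in each of 4 groups, selected for poly(A) and sequenced as paired ends, per the labels' protocols. The submitters' processing notes name STAR 2.5.2, Trimmomatic 0.35, FastQC 0.11.5, Cuffdiff and Cufflinks, with GRCm38 as the build. The options set, and any use of strand in counting, were not given in the sources used here. Per the file headers, each genotype has a Cuffdiff table deposited by the authors, in which an FPKM value stands for a whole group. Depth is unknown, and whether replicates came from separate animals is not stated. The tables come from separate runs, each scaled on its own, so an FPKM of 1 table can be shifted against the other by a common factor. The authors' deposited test statistic, a signed score for UV against untreated cells, served only for a yardstick: the median standard error it implied was 0.31 on the log2 scale in p53CryKO and 0.34 in p53KO cells. Another deposited table was not used.

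The tables were joined by gene ID and kept where the status was OK in both. The log2 ratio was taken without a pseudocount for genes with an FPKM of 1 or more in at least 1 untreated group and above 0 in both, and a gene was counted as higher or lower at 2-fold. The step was tested on simulated data. With 1 pooled value per group no p-value for the genotypes was computed. The genes, the gene lists (58 with 1008 entries) and the naming rule were chosen with earlier results of these data known. The rule names the targeted genes, clock genes, the 15 largest and 15 smallest ratios among genes with an FPKM of 5 or more in the higher group, leaving out models and names of several genes, and up to 4 members of each list that were 2-fold apart; further list members were chosen after their values were seen, to show the spread of a list. Some genes that the rule names are not reported here. Gene positions came from GENCODE M21, which held 37691 of the 39175 gene IDs, and promoter windows from RefSeq. Other settings changed the scaling, the FPKM minimum, the pseudocount, the status filter and the fold. Python 3.11.15 was used with numpy 2.4.6, pandas 2.3.3, scipy 1.17.1 and matplotlib 3.10.9.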

Additional observations from a re-analysis of the deposited data

Results flagged for a closer look

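For 5 genes with an FPKM of 5 or more in the higher untreated group, the ratio of the genotypes was at least 2-fold in untreated cells and at least 2-fold the other way after UV; 3 of them are numbered snoRNA gene models, which the naming rule leaves out. Lpar6, a receptor for lysophosphatidic acid whose gene lies within Rb1 on the other strand, stood at 5.28 FPKM in untreated p53CryKO and 2.55 in untreated p53KO cells (log2 ratio 1.05), and at 7.0 in p53CryKO and 15 in p53KO cells after UV (-1.1). Rb1 itself was near level in both conditions (log2 ratio 0.48 untreated and 0.09 after UV). Mir1949, a small RNA model, stood at 10.5 FPKM in untreated p53CryKO and 30.1 in untreated p53KO cells (-1.52), and at 98.4 in p53CryKO and 34.0 in p53KO cells after UV (1.53). Neither difference between the conditions was tested, since each rests on 4 pooled values. They belong to 17 genes of any level that changed sides in this way, 4 higher and 13 lower in untreated p53CryKO cells, of which 11 were not protein-coding.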

How the results depend on the processing

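Centring the ratios on their median gave 699 genes at least 2-fold higher and 739 lower in p53CryKO cells (48.6% higher among them, against 42.1% as reported), equal summed FPKM gave 556 and 908, and genes of any status gave 670 and 867. Without an FPKM minimum 1044 were higher, with a minimum of 5 there were 311 higher and 408 lower, with a pseudocount of 1 there were 378 and 518, at 1.5-fold 1410 and 1891, and at 4-fold 185 and 268. The share of higher genes found again after UV was 58.8% without a minimum and 65.1% with a pseudocount of 1. The share of lower genes was 77.7% at equal summed FPKM, 65.8% without a minimum, 58.5% with a pseudocount and 70.6% at 4-fold. The E-box list median ran from 0.37 to 0.52, and medians of the Hoxa and mesothelial lists were -4.72 and 4.41 with genes of any status. Of 312 values of 46 named genes under these settings, 28 moved, all with the pseudocount, and 2 changed sign, Cry1 to 0.04 and Clock to 0.06 with each chromosome set to a median of 0. Of 198 list members at least 2-fold apart, some fell short of 2-fold under a setting. With median centring these were 7, among them Bbc3, Col6a3 and Pdgfrb, and at equal summed FPKM 8, namely Ccl5, Cxcl1, Ddx3y, H2afx, Igf1, Loxl2, Phlda3 and Xpa. With each chromosome set to a median of 0 they were 21, among them Adcy7, Bbc3, Col1a2, Ddx3y, E2f8, Eif2s3y, Insig1, Irf9, Loxl2, Phlda3, Wnt5a and Xpa, and with a pseudocount of 1 they were 48, among them Aldh1a1, Aspn, Bbc3, Bhlhe41, Ccl5, Col7a1, Cxcl1, Ddx3y, E2f8, H2afx, Hoxc13, Hoxd9, Igf1, Igf2, Irf9, Loxl2, Mycl, Nr4a2, Oasl1, Pdgfrb, Phlda3, Plagl1, Pmaip1, Psmb9, Ptch1, Slc7a11, Sp7 and Xpa. The setting of each chromosome to a median of 0 was chosen after seeing the data. No paired analysis was possible because each group has 1 pooled value, and for the same reason no replicate could be left out. Depth is unknown, so no detection limit can be given for genes listed at 0.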
